A study of Mus musculus with 24 samples.

Results

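The genes described here encode the receptors through which retinal neurons respond to GABA, glycine and glutamate. Members were chosen by gene symbol: probe sets with a single platform symbol beginning with Gabr, Glra, Glrb, Gria, Grik, Grid, Grin or Grm, with Grm3 and Grm6 left out. This gave 38 probe sets for 32 genes, of 20380 probe sets for 12393 genes with a single symbol on the array. The study profiled retinas of C57Bl/6 mouse pups with 24 arrays in 8 groups of 3. The pups were kept in room air to postnatal day 7, 8, 10 or 12, or were exposed to hyperoxia for 12 hours to day 7, 24 hours to day 8, 72 hours to day 10 or 120 hours to day 12. Age and duration of exposure move together in the hyperoxia groups and cannot be told apart. The labels used here give no oxygen concentration, no number of animals per array and no statement that replicates came from separate animals. The p-values therefore rest on the spread among these samples alone, and that spread may be technical.

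GABA-A and glycine receptors are chloride channels, and they carry the fast inhibition that amacrine and horizontal cells impose on bipolar, ganglion and other amacrine cells. AMPA, kainate and NMDA receptors are cation channels through which glutamate from photoreceptors and bipolar cells excites the next cell. Metabotropic receptors act through G proteins. Bipolar cells and their synapses form late in the mouse retina, in the days before the eyes open, so that the ages sampled here span much of the assembly of the inner retinal circuit. In whole-tissue RNA, fewer cells of a type and less RNA per cell cannot be told apart.

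Of the 38 probe sets, 21 for 18 genes were bright enough to be tested, and 17 had a mean under the filter, at 7.90 on the log2 intensity scale. The tested set held 2 probe sets for the alpha subunits of GABA-A receptors (Gabra2 and Gabra3), 2 for beta (Gabrb1 and Gabrb2), 1 for gamma (Gabrg1), 2 for rho (Gabrr1 and Gabrr2) and 4 for the delta, epsilon and pi subunits (Gabrd, Gabre and Gabrp). It also held Glrb, the beta subunit of the glycine receptor, and all 6 probe sets of the AMPA receptor genes Gria1 to Gria4. Kainate receptors were represented by Grik5, NMDA receptors by Grin2d and metabotropic receptors by Grm8, with 1 probe set each. Since only members bright in at least some groups could pass, counts over the tested members describe those members and not the family.

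The arrays differed in tissue content beyond the labelled groups. The summed intensity of 11 lens genes ranged from 1808 to 217418 among the day 7 and day 12 arrays and overlapped between all groups of those ages. In hyperoxia it lay between 2155 and 7734 at day 8 and between 24333 and 140143 at day 10, without overlap. In room air it lay between 5586 and 114435 at day 8. Summed pigment epithelium markers (8 genes) went from between 6866 and 28153 at day 7 to between 21905 and 40736 at day 12 in room air, and from between 5326 and 15121 to between 18645 and 51178 in hyperoxia. No measured marker of rods, cones, bipolar, amacrine, horizontal or ganglion cells or Müller glia fell under the filter. In room air 5 of 8 rod genes, 4 of 7 cone genes, 3 of 9 bipolar genes, 2 of 9 amacrine genes, 1 of 4 horizontal cell genes, 5 of 11 ganglion cell genes and 3 of 9 Müller glia genes were called higher at day 12 than at day 7. Called lower were 1 cone gene, 1 bipolar gene and 5 of 8 tested progenitor and cell division genes. Over all probe sets 7.14% were called higher and 5.2% lower in this comparison. The arrays farthest from their group means were room air day 8 replicate 1 and hyperoxia day 12 replicate 2. Values below are log2 intensities after quantile normalization, and differences are on the log2 scale with the standard error of the limma fit.

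Between day 7 and day 12 in room air, 8 of the 21 tested receptor probe sets (38.1%, or 21.1% of all 38) rose and 0 fell, with limma and a Benjamini-Hochberg adjusted p under 0.05. The other 13 were not called. Those that rose stood for 8 genes: Gabrr2, Gabrr1, Gabrd, Gabrb1 and Gabra2 of the GABA-A receptors, Glrb of the glycine receptor, and Gria3 and Gria1 of the AMPA receptors. Among all 15838 probe sets tested in this comparison 12.3% were called, 7.14% higher and 5.2% lower. The median difference was 0.30 over the tested members and -0.03 over all probe sets. A positive difference was found for 17 of the 21 members and for 45.7% of all probe sets. The arrays of the 2 ages did not overlap for 10 of the 21 members, and for 28.3% of all probe sets tested.

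The rho subunits form GABA-gated channels that are slow and lie largely at the axon terminals of bipolar cells. Gabrr2 (probe set 1420735_at) had the largest difference among the members. Its promoter and that of Gabrr1 are shown because the genes lie next to each other on chromosome 4, with 0 protein-coding genes between them in RefSeq (GRCm38.p6), and both rose. The 250 bases before each RefSeq transcript start follow, read 5′ to 3′ on the gene's strand, Gabrr2 at chr4:33062862-33063111 and Gabrr1 at chr4:33132306-33132555, both on the plus strand. Capitals mark a TAATCC match on the minus strand in Gabrr2, a core bound by the homeodomain factors of photoreceptors and bipolar cells, and a GGGCGG match on the minus strand in Gabrr1.
Gabrr2: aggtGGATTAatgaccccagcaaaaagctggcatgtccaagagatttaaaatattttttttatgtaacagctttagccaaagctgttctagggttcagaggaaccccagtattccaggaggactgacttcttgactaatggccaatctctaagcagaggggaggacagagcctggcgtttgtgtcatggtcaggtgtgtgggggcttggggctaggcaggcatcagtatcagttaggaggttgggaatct
Gabrr1: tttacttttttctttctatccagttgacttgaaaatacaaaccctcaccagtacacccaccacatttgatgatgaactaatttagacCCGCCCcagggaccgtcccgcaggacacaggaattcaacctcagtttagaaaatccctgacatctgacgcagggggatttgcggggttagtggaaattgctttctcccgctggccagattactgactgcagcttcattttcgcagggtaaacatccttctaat
Both strands were searched for TAATCC, for the GC box GGGCGG and for the TATA box TATAAA. The homeodomain core TAATCC lay in 6.25% of all 32851 RefSeq windows of this length, GGGCGG in 32.74% and TATAAA in 12.37%. Of the 30 windows of the 24 member genes found in the table, 2 held TAATCC (Gabrr2, whose match begins at base -246 from the start, and Gabra2), 12 held GGGCGG and 4 held TATAAA. The GC content was 47.6% for Gabrr2 and 46.0% for Gabrr1, against a median of 52.4% over all windows. These are matches of letters only, and binding was not measured.

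In room air Gabrr2 stood at 7.68, 8.17 and 8.00 on the day 7 arrays, 8.28, 8.11 and 7.57 at day 8, 9.58, 9.01 and 9.17 at day 10, and 10.38, 10.26 and 10.34 at day 12. In hyperoxia it stood at 8.00, 8.32 and 7.31 at day 7, 8.23, 7.97 and 7.72 at day 8, 9.34, 8.89 and 8.73 at day 10, and 10.28, 9.78 and 10.17 at day 12. The arrays of days 7 and 8 were mixed with each other, all day 10 arrays lay above them, and all day 12 arrays lay above those of day 10, in both conditions. Gabrr2 rose by 2.37 ± 0.24 from day 7 to day 12 in room air, a 5.18-fold change (adjusted p = 2.38e-06), and by 2.20 ± 0.24 in hyperoxia, a 4.59-fold change (adjusted p = 6.41e-06).

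Averaged over both conditions, Gabrr2 differed by 0.06 ± 0.17 between days 7 and 8 (95% interval -0.29 to 0.42), rose by 1.14 ± 0.17 between days 8 and 10 (adjusted p = 0.000741) and rose by a further 1.08 ± 0.17 between days 10 and 12 (adjusted p = 0.00219). Between days 8 and 10, 2.89% of all probe sets were called and 1.76% were higher, and between days 10 and 12, 1.45% were called and 0.663% were higher. Gabrr2 was the 1 member called in each of these steps. At an unadjusted p under 0.05 were 6 and 3 of the 21 members, beside 2191 and 2170 of all 15838 probe sets. With the higher filter, at the 50th percentile of means, Gabrr2 was not tested.

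Gabrr1 (1450300_at) rose over the same days by less. Its values were 11.19, 11.46 and 11.12 at day 7 and 11.88, 12.03 and 11.84 at day 12 in room air, and 11.17, 11.67 and 11.22 at day 7 and 11.98, 12.13 and 11.85 at day 12 in hyperoxia. The ages did not overlap in either condition. Gabrr1 rose by 0.66 ± 0.13 in room air (adjusted p = 0.00176) and by 0.63 ± 0.13 in hyperoxia (adjusted p = 0.00244). The interval of the difference between the conditions in this change was -0.41 to 0.36 for Gabrr1 and -0.89 to 0.54 for Gabrr2. The day 8 and day 10 arrays of Gabrr1 did not overlap either, with a difference of 0.32 ± 0.09 (adjusted p = 0.0661). The summed intensity of bipolar markers moved with these genes, from between 28708 and 34843 at day 7 to between 43682 and 49365 at day 12 in room air, and from between 27726 and 33803 to between 40563 and 46197 in hyperoxia. The list did not move as one: in each condition 3 of its 9 genes were called higher and 1 lower, and the median difference was -0.03 in room air and 0.31 in hyperoxia. Over all probe sets 7.14% were called higher and 5.2% lower in room air, and 5.95% and 6.64% in hyperoxia. The part of bipolar cell number in the rise of the rho genes was not tested.

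**Figure D1:**
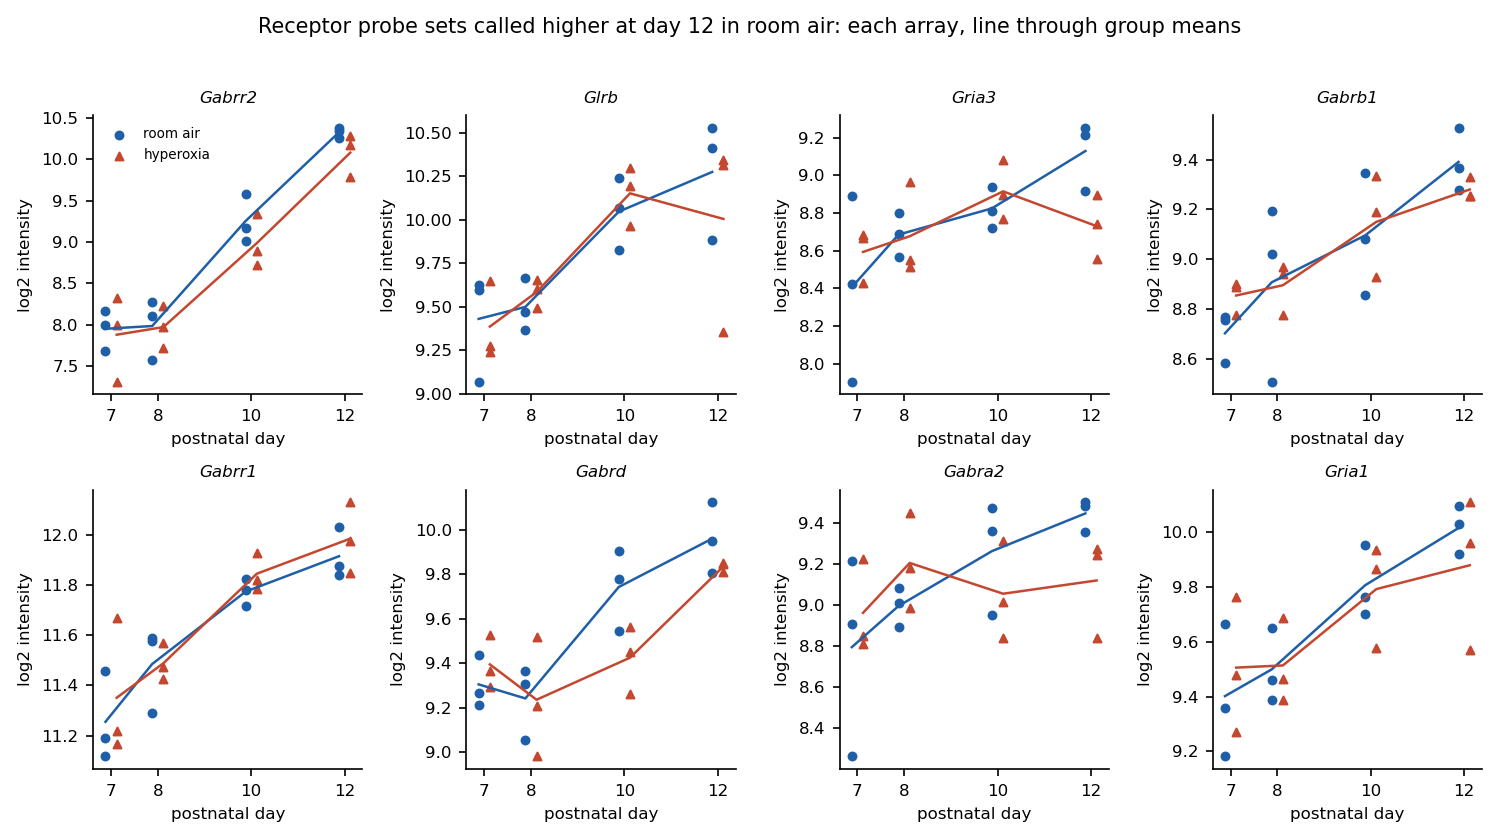
Log2 intensity of the 8 receptor probe sets that rose between day 7 and day 12 in room air, against postnatal day, with 1 point per array (3 per group, blue circles room air, red triangles hyperoxia) and lines through the group means. Gabrr2 climbed from near 8.0 at days 7 and 8 to above 9.7 on all day 12 arrays in both conditions, while the axes of the other genes span much smaller ranges.

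Among the other GABA-A subunits, Gabrd, Gabrb1 and Gabra2 rose in room air. Gabrd (1449980_a_at) encodes the delta subunit, found in receptors outside synapses that carry tonic currents. It stood at 9.21, 9.27 and 9.44 at day 7 and at 10.12, 9.81 and 9.95 at day 12 in room air, and at 9.37, 9.53 and 9.29 and then 9.85, 9.85 and 9.81 in hyperoxia. All day 12 arrays lay above all day 7 arrays within each condition. Gabrd rose by 0.65 ± 0.14 in room air (adjusted p = 0.00301) and by 0.44 ± 0.14 in hyperoxia (adjusted p = 0.0394). The call in hyperoxia was lost without any 1 of hyperoxia day 12 replicates 1, 2 and 3 or hyperoxia day 7 replicates 1 and 3 (adjusted p from 0.0799 to 0.135).

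Gabrb1 (1419719_at) encodes a beta subunit, which forms the GABA binding site together with an alpha subunit. In room air its arrays read 8.58, 8.77 and 8.76 at day 7 and 9.37, 9.53 and 9.28 at day 12, with no overlap, and it rose by 0.69 ± 0.15 (adjusted p = 0.00458). In hyperoxia they read 8.90, 8.77 and 8.89 at day 7 and 9.26, 9.26 and 9.33 at day 12, again without overlap, and the difference of 0.43 ± 0.15 did not pass (adjusted p = 0.0744). Without room air day 8 replicate 3 it did (adjusted p = 0.0319).

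Gabra2 (1421738_at) encodes an alpha subunit. Its room air arrays read 9.21, 8.91 and 8.26 at day 7 and 9.36, 9.50 and 9.48 at day 12. The day 7 arrays ran from 8.26 to 9.21, in a gene that ran from 8.26 to 9.50 over all 24 arrays, and the ages did not overlap. Gabra2 rose by 0.65 ± 0.20 (adjusted p = 0.0419). Without room air day 7 replicate 3, its lowest array, the difference was 0.39 (adjusted p = 0.268), and the call was lost in 8 of the 24 fits that left out 1 array. It was also lost with the deposited scaling (0.51, adjusted p = 0.109), without the filter (adjusted p = 0.0664) and with only the arrays compared (adjusted p = 0.149). In hyperoxia the difference was 0.16 ± 0.20 (95% interval -0.27 to 0.59), with arrays of 8.81, 8.85 and 9.22 at day 7 and 8.84, 9.25 and 9.27 at day 12. Gabra2 and Gabrb1 lie on chromosome 5 with 2 protein-coding genes between them, 1 of which, Gabra4, encodes a further alpha subunit.

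The remaining tested GABA-A probe sets were not called in any comparison. Gabra3 (alpha) had a difference of 0.30 ± 0.26 in room air and 0.34 ± 0.26 in hyperoxia between days 7 and 12, Gabrb2 (beta) 0.04 ± 0.30 and 0.29 ± 0.30, and Gabrg1 (gamma, 1460408_at) 0.21 ± 0.29 and 0.66 ± 0.29. Gabre, the epsilon subunit, had -0.17 ± 0.24 and 0.03 ± 0.24. The 2 probe sets of Gabrp, the pi subunit, had opposite signs in room air, 0.28 ± 0.31 for 1424647_at and -0.55 ± 0.28 for 1451424_at. The second set read 8.53, 8.90 and 9.19 at day 7 and 8.48, 8.43 and 8.07 at day 12 in room air, without overlap but with an adjusted p of 0.232.

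Glycine receptors pair alpha subunits with the beta subunit encoded by Glrb, which binds the scaffold protein gephyrin. Glrb and the AMPA receptor gene Gria2 are neighbours on chromosome 3, with 0 protein-coding genes between them, and their promoters are shown as a pair of which Glrb rose in room air and Gria2 was not called, a choice made after their values were seen. Each window holds the 250 bases before the RefSeq start on the minus strand (GRCm38.p6), Glrb at chr3:80913661-80913910 and Gria2 at chr3:80802836-80803085. Capitals mark a GGGCGG match on the minus strand of the printed sequence, beginning at base -49 of Glrb, and Gria2 holds none of the 3 motifs in this window.
Glrb: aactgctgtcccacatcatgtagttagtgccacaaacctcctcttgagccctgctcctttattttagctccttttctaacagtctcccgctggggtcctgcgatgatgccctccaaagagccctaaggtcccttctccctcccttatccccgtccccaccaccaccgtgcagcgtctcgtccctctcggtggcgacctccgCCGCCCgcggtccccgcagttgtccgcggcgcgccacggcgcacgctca
Gria2: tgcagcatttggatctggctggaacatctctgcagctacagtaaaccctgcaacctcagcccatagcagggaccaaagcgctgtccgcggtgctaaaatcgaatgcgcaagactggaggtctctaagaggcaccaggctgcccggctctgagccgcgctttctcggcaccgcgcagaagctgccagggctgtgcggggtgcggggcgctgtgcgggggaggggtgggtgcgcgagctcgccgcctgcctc
The GC content was 62.4% for Glrb and 64.8% for Gria2, both above the median of all windows.

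In room air Glrb (1422504_at) read 9.60, 9.62 and 9.07 at day 7, 9.36, 9.66 and 9.47 at day 8, 9.83, 10.07 and 10.24 at day 10, and 9.88, 10.41 and 10.53 at day 12. In hyperoxia it read 9.65, 9.27 and 9.24 at day 7, 9.66, 9.60 and 9.49 at day 8, 10.30, 9.96 and 10.19 at day 10, and 10.31, 9.36 and 10.34 at day 12. All arrays of day 10 lay above all those of day 8, and 1 hyperoxia day 12 array, replicate 2, fell back among the day 7 values. Glrb rose by 0.85 ± 0.23 between days 7 and 12 in room air (adjusted p = 0.0174). In hyperoxia the difference was 0.62 ± 0.23 (adjusted p = 0.0813), and without replicate 2 at day 12 it was 0.94 (adjusted p = 0.00416). The room air call was lost without room air day 7 replicate 3 (0.66, adjusted p = 0.112), day 12 replicate 2 (0.78, adjusted p = 0.0695) or day 12 replicate 3 (0.72, adjusted p = 0.0816), and with lens and pigment scores as covariates (0.81, adjusted p = 0.0659). Between days 8 and 10, over both conditions, the difference was 0.56 ± 0.16 (adjusted p = 0.0698).

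AMPA receptors are assembled from the products of Gria1 to Gria4, and edited Gria2 transcripts make the channel impermeable to calcium. Gria1 had 2 probe sets. The brighter, 1435239_at, read 9.66, 9.36 and 9.18 at day 7 and 10.09, 10.03 and 9.92 at day 12 in room air, without overlap, and rose by 0.61 ± 0.16 (adjusted p = 0.0138). The other, 1448972_at, read 9.05, 9.24 and 9.07 and then 9.35, 9.17 and 9.25, with overlap, and differed by 0.14 ± 0.14 (adjusted p = 0.612), so the rise of Gria1 rests on 1 of its 2 probe sets. In hyperoxia the sets differed by 0.37 ± 0.16 (adjusted p = 0.137) and 0.18 ± 0.14. The first set was called there with the replicate number as a block (adjusted p = 0.0196). Its room air call was lost without room air day 7 replicate 3 (0.50, adjusted p = 0.0884) or day 12 replicate 1 (0.57, adjusted p = 0.05, just over the threshold).

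Gria3 (1420563_at) read 8.89, 7.90 and 8.42 at day 7 and 9.25, 8.92 and 9.22 at day 12 in room air. The highest day 7 array lay just under the lowest day 12 array. Gria3 rose by 0.72 ± 0.19 (adjusted p = 0.0135), a call lost without room air day 7 replicate 2 (0.47, adjusted p = 0.0801) or day 12 replicate 1 (0.66, adjusted p = 0.0533). In hyperoxia it read 8.67, 8.43 and 8.68 at day 7 and 8.74, 8.55 and 8.90 at day 12, and the difference was 0.14 ± 0.19.

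Gria2, by contrast, had negative differences in room air, none of them called. The brighter set, 1421970_a_at, read 10.93, 10.93 and 10.83 at day 7 and 10.83, 10.91 and 10.74 at day 12 in room air (-0.07 ± 0.16). It read 10.83, 11.06 and 10.79 and then 11.32, 11.45 and 11.14 in hyperoxia (0.40 ± 0.16, adjusted p = 0.0996), where the ages did not overlap. The dimmer set, 1453098_at, differed by -0.16 ± 0.23 and 0.35 ± 0.23. Gria4 differed by 0.00 ± 0.21 in room air and 0.45 ± 0.21 in hyperoxia (adjusted p = 0.192), and its groups did not overlap in hyperoxia.

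The other glutamate receptors that could be tested were not called in any comparison. Grm8 (1421530_a_at), a presynaptic receptor that lowers glutamate release, came closest. Its arrays read 8.94, 8.36 and 8.50 at day 7 and 9.28, 9.22 and 9.45 at day 12 in room air, without overlap, with a difference of 0.71 ± 0.25 (adjusted p = 0.0646). In hyperoxia the difference was 0.27 ± 0.25. Grik5, a kainate receptor subunit that needs a partner subunit to form a channel, differed by 0.09 ± 0.21 and -0.07 ± 0.21. Grin2d, an NMDA receptor subunit with slow kinetics, differed by 0.50 ± 0.27 and 0.30 ± 0.27, with 1 of its 24 arrays at the floor. Neither gene's ages separated in either condition.

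**Figure D2:**
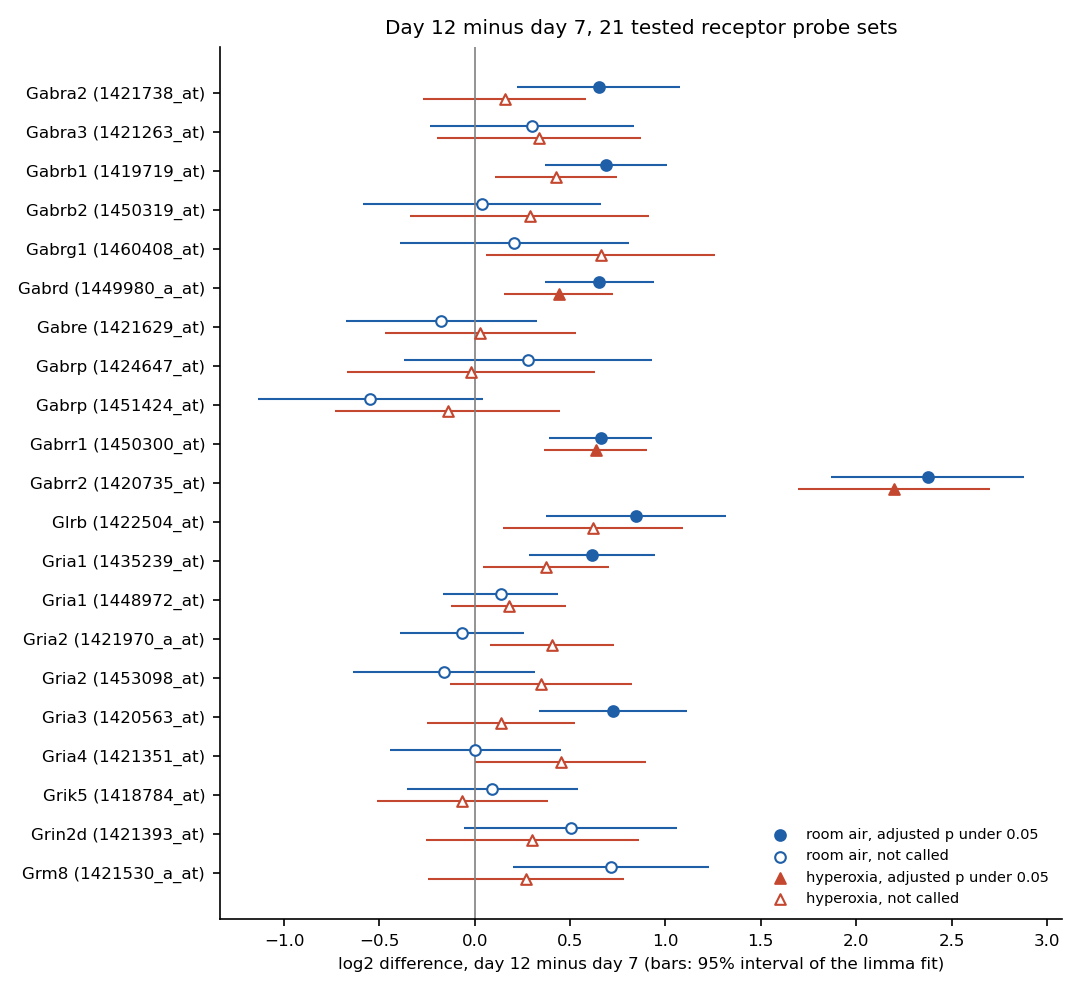
Log2 difference between day 12 and day 7 for the 21 tested receptor probe sets, in room air (blue circles) and hyperoxia (red triangles), with 95% intervals of the limma fit; filled points passed an adjusted p under 0.05. The 8 filled circles and 3 filled triangles lie to the right of 0, and Gabrr2 stands far beyond the others at 2.37 and 2.20.

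In hyperoxia 3 of the 21 tested probe sets rose between days 7 and 12 (14.3%, or 7.89% of all 38), Gabrr2, Gabrr1 and Gabrd, and 0 fell. Over all probe sets 12.6% were called, 5.95% higher and 6.64% lower. The median difference of the members was 0.34, against -0.03 over all probe sets, and 18 of 21 were positive, beside 46.5% of all probe sets. As many members as in room air, 9, had an unadjusted p under 0.05, beside 4051 of all 15838 probe sets (4085 in room air). Whether the change with age differed between the conditions was tested by the hyperoxia difference at day 12 less the one at day 7. This contrast called 0 members and 0 of all probe sets in limma. At an unadjusted p under 0.05 were 983 of all 15838 probe sets and 2 members. Those were Gria3 at -0.59 ± 0.26 (95% interval -1.14 to -0.04) and Gria2 (1421970_a_at) at 0.47 ± 0.22 (95% interval 0.01 to 0.93), with adjusted p of 0.756 and 0.784. Next by p were Gabra2 at -0.49 ± 0.29, the other Gria2 set at 0.51 ± 0.32 and Gria4 at 0.45 ± 0.30.

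Of 8 pigment epithelium markers, 4 were called higher at day 12 than at day 7 in hyperoxia and 1 in room air, beside 5.95% and 7.14% of all probe sets. With lens and pigment scores as covariates, 7 members were called in room air and 1 in hyperoxia. Over all probe sets 1281 and 565 were called under this setting, beside 1955 and 1993 in the main fit. Gabrr2 was called in both conditions, at 2.17 (adjusted p = 2.57e-05) in room air and 1.87 (adjusted p = 0.0018) in hyperoxia. In hyperoxia Gabrr1 then stood at 0.50 ± 0.17 (adjusted p = 0.114) and Gabrd at 0.51 ± 0.17 (adjusted p = 0.112). Without the covariates they stood at 0.63 and 0.44.

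Between days 7 and 8 limma called 0 members and 0 of all probe sets. An unadjusted p under 0.05 was found for 0 members, beside 892 of all 15838 probe sets. The differences with the lowest p were 0.18 ± 0.09 for Gabrr1, 0.22 ± 0.14 for Gabra2, -0.25 ± 0.17 for Gabre, 0.18 ± 0.13 for Gria3 and 0.26 ± 0.20 for Gabrg1. Between days 8 and 10, after Gabrr2, Gabrd had a difference of 0.34 ± 0.10 (adjusted p = 0.0635) and Gria1 (1448972_at) one of 0.34 ± 0.10 (adjusted p = 0.0921), beside Gabrr1 and Glrb above. These did not pass here, but among 11 alternative settings Gabrr1 passed in 5, Glrb in 3, Gabrd in 2 and Gria1 (1448972_at) in 1. With lens and pigment scores as covariates the differences were 0.29 for Gabrr1, 0.51 for Glrb, 0.43 for Gabrd and 0.37 for Gria1 (1448972_at). The adjusted p was 0.258, 0.312, 0.0727 and 0.222 in that order. Over all probe sets 132 were called with the covariates, beside 458 in the main fit. Between days 10 and 12 the next members were Gabrd at 0.31 ± 0.10 (adjusted p = 0.114), Gabrg1 at 0.43 ± 0.20, Gria4 at 0.31 ± 0.15 and Gabrb1 at 0.21 ± 0.11. Gabrd and Gabrr2 thus had intervals above 0 in each of the later steps.

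Hyperoxia against room air of the same age is the comparison that asks whether raised oxygen changed receptor transcripts. Limma called 0 of the 21 members at day 7, 8, 10 or 12 and 0 for the mean of the 4 days. At an unadjusted p under 0.05 were 0, 1, 3, 3 and 0 members. The same counts over all 15838 probe sets were 503, 780, 1729, 1383 and 1415. Over all probe sets 0.0631% were called at day 7, 0.0821% at day 8, 0.0631% at day 10, 0.0126% at day 12 and 0.492% for the mean, so few features of any kind passed. The lowest adjusted p among the members was 0.337, for Grik5 at day 10. The largest difference in either direction over the 4 days was 0.62. The arrays of the 2 conditions did not overlap for 2, 0, 4 and 4 of the 21 members at days 7, 8, 10 and 12. The share over all probe sets was not counted for these comparisons. Gaps between the conditions named below are therefore descriptions and not evidence of a change.

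At day 10 the Grik5 arrays read 11.21, 11.04 and 11.00 in room air and 10.45, 10.57 and 10.43 in hyperoxia, without overlap (-0.60 ± 0.21, 95% interval -1.05 to -0.15). At day 8 they read 10.50, 10.85 and 11.16 against 10.74, 10.49 and 10.13 (-0.38 ± 0.21), and at days 7 and 12 the differences were 0.26 ± 0.21 and 0.10 ± 0.21. The sign was therefore not the same at all ages, and the mean of the 4 days was -0.15 ± 0.11. Gria4 also changed sign, with -0.40 ± 0.21 at day 7, 0.47 ± 0.21 at day 8, 0.45 ± 0.21 at day 10 and 0.05 ± 0.21 at day 12. Its day 7 arrays did not overlap, at 9.28, 9.17 and 9.04 in room air and 8.67, 8.76 and 8.86 in hyperoxia.

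At day 12 the lowest p belonged to the AMPA receptor genes. Gria2 (1421970_a_at) was higher in hyperoxia on all arrays by 0.47 ± 0.16 (95% interval 0.15 to 0.80, adjusted p = 0.426), and its other set, with overlap, by 0.62 ± 0.23 (adjusted p = 0.463). At days 7, 8 and 10 both Gria2 sets had intervals that held 0. Gria3 differed by -0.40 ± 0.19 (adjusted p = 0.562), and its highest hyperoxia array (8.90) lay just under its lowest room air array (8.92). The second Gria1 set differed by 0.26 ± 0.14 and Gabra2 by -0.33 ± 0.20. Gabrr2 differed by -0.25 ± 0.24 at day 12 (95% interval -0.75 to 0.26) and by -0.15 ± 0.12 over the 4 days.

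**Figure D3:**
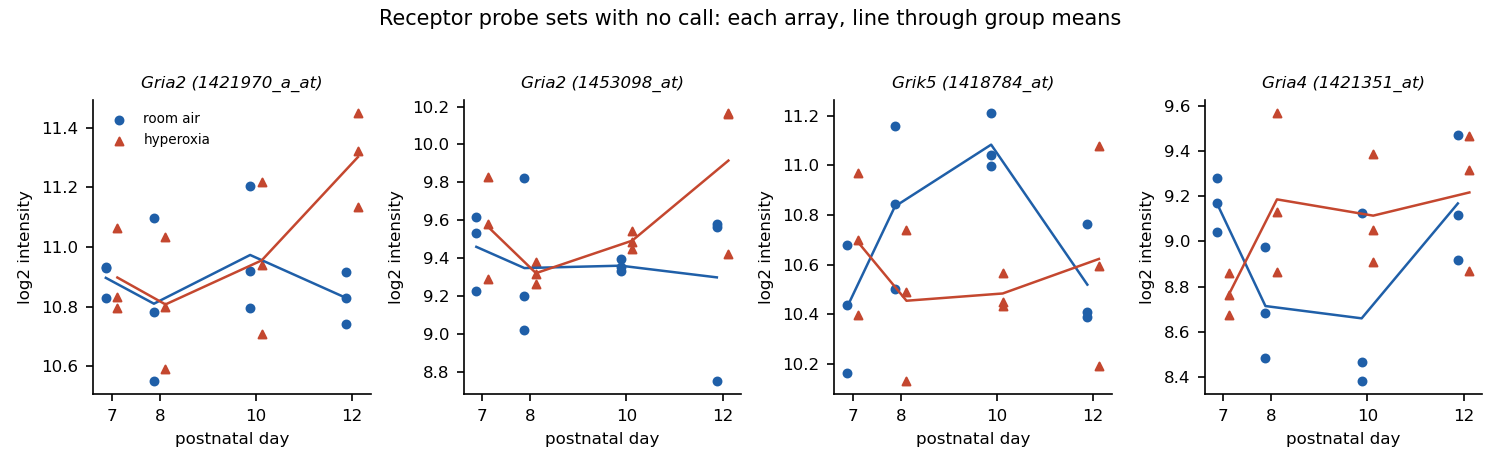
Log2 intensity against postnatal day for 4 probe sets that passed no test, Gria2 (2 sets), Grik5 and Gria4, with 1 point per array (blue circles room air, red triangles hyperoxia) and lines through the group means. The conditions part at day 12 for Gria2 and at day 10 for Grik5, and the Gria4 lines cross between days 7 and 8.

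For the remaining members with the lowest p, the differences were 0.43 ± 0.31 for Gabrp (1424647_at) and 0.33 ± 0.27 for Grin2d at day 7, and -0.30 ± 0.24 for Gabre, -0.32 ± 0.27 for Grin2d and 0.35 ± 0.30 for Gabrb2 at day 8. At day 10 Gabrd differed by -0.32 ± 0.14 (95% interval -0.60 to -0.03), Gabrb2 by 0.60 ± 0.30 and Gabrp (1451424_at) by 0.53 ± 0.28. Averaged over the days, the differences with the lowest p were those of Gabrp at 0.25 ± 0.14, Gabrb2 at 0.22 ± 0.15 and Gria2 at 0.21 ± 0.11 and 0.11 ± 0.08.

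**Figure D4:**
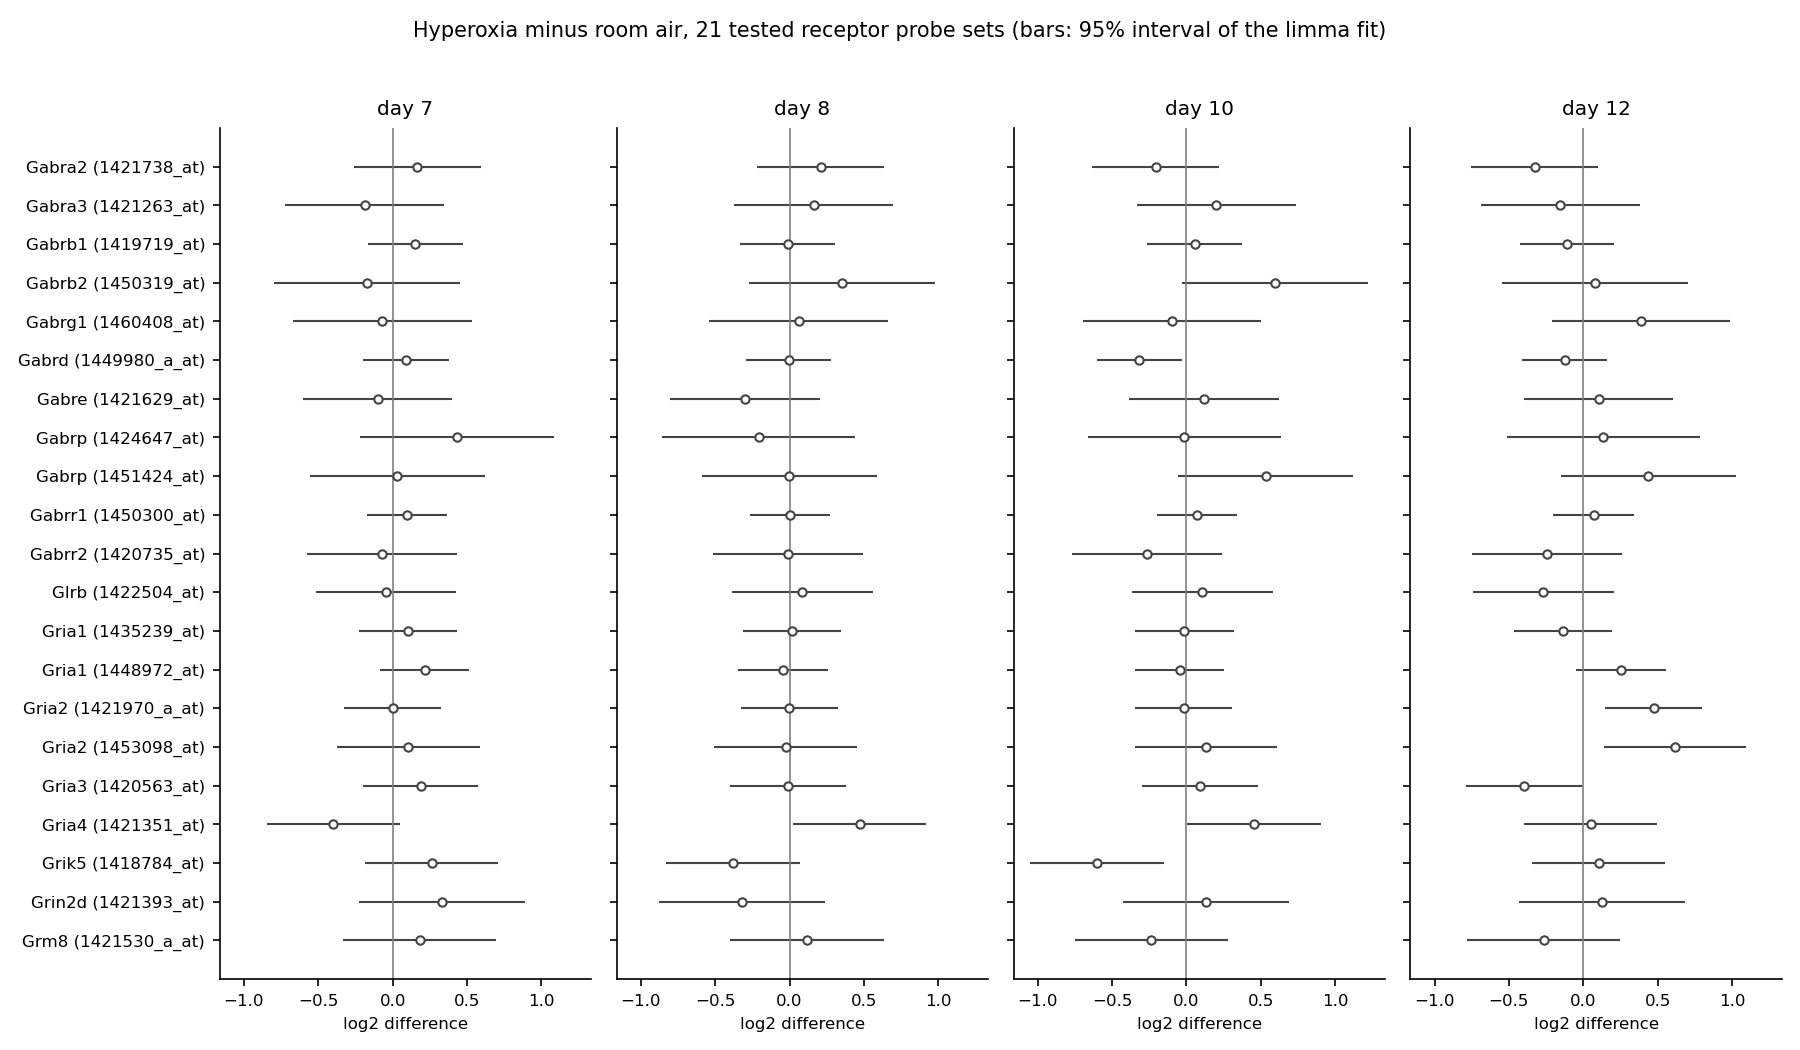
Log2 difference, hyperoxia minus room air, for the 21 tested receptor probe sets at days 7, 8, 10 and 12, with 95% intervals of the limma fit. All points are open because 0 passed an adjusted p under 0.05, and the points lie between -0.60 and 0.62.

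The 17 untested probe sets were dim on most arrays. Grik3, a kainate receptor subunit, was at the floor of 7.08 on all 24 arrays, and Grin3b, an NMDA receptor subunit, and 1 set of Gabra6 were above it on 1. The other set of Gabra6 (alpha) was above the floor on 16 arrays, Gabrq (theta) on 9, Gabrg3 (gamma) on 20 and the second Gabrg1 set on 5. The glycine receptor alpha subunits Glra1, Glra3 and Glra4 were above it on 6, 9 and 13 arrays. Grik1 and Grik2 (kainate) were above it on 21 and 8, Grin2a and Grin2c (NMDA) on 9 and 17, the 2 sets of Grin2b on 13 and 21, and Grid1, a delta receptor, on 17. A dim probe set gives no statement that its gene is silent.

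Without the filter, 1 of these 17 was called in 1 comparison: Grik1 (1427676_a_at), a kainate receptor subunit used by OFF bipolar cells, in room air between days 7 and 12. Its arrays read 7.08, 7.63 and 7.08 at day 7, with 2 of 3 at the floor, and 8.10, 8.27 and 8.19 at day 12, without overlap, and the difference was 0.92 ± 0.25 (adjusted p = 0.0293). In hyperoxia they read 7.65, 7.49 and 7.12 and then 8.33, 7.11 and 8.04, and the difference was 0.41 ± 0.25 (adjusted p = 0.41). Grid1 differed by 0.86 ± 0.28 in room air and 0.88 ± 0.28 in hyperoxia (adjusted p = 0.0738 and 0.0679). Differences that start at the floor may be understated, and so may the spread among arrays held at it, which can ease a call.

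Among 46 tested genes, in 4 lists, that make, move and anchor the same transmitters and receptors, 15 were called between days 7 and 12 in room air (32.6%), 13 higher and 2 lower, and 31 were not called. In hyperoxia 14 were called (30.4%), 13 higher and 1 lower, and 32 were not. These shares count 1 probe set a gene, beside 12.3% and 12.6% of all probe sets. The median difference over the 46 was 0.21 in room air and 0.26 in hyperoxia, beside -0.03 over all probe sets in each. In the list of GABA and glycine synthesis, breakdown and transport, 2 of 7 tested genes rose and 1 fell in each condition (42.9% called, with medians of 0.22 and 0.46). Gad1, which makes GABA, rose by 0.41 ± 0.11 (adjusted p = 0.0202) in room air and 0.68 ± 0.11 (adjusted p = 0.000385) in hyperoxia, and Abat, which breaks GABA down, by 0.58 ± 0.14 and 0.63 ± 0.14. Gldc, the decarboxylase of the glycine cleavage system, fell by 0.86 ± 0.09 in room air (adjusted p = 4.4e-06) and by 0.79 ± 0.09 in hyperoxia. Its room air arrays read 11.89, 11.95 and 11.87 at day 7 and 11.02, 11.03 and 11.06 at day 12. With lens and pigment scores as covariates the call of Gad1 in room air (0.41 ± 0.13, adjusted p = 0.0548) and that of Abat in hyperoxia (0.69 ± 0.20, adjusted p = 0.0646) were lost. Neither difference became smaller. The room air call of Gad1 was also lost without room air day 12 replicate 2 (adjusted p = 0.0843) or day 7 replicate 3 (adjusted p = 0.0691).

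In the list of the inhibitory postsynapse, GABA-B receptor and chloride balance, 2 of 8 rose in room air (25%, median 0.16) and 3 in hyperoxia (37.5%, median 0.28). Slc12a5, the chloride exporter that makes GABA inhibitory, went from 13.58, 13.60 and 13.52 to 14.34, 14.38 and 14.33 in room air, without overlap. It rose by 0.78 ± 0.12 (adjusted p = 0.000137) in room air and by 0.70 ± 0.12 (adjusted p = 0.000465) in hyperoxia. Gabarapl1, a relative of the GABA-A receptor-associated protein, rose by 0.81 ± 0.13 and 0.63 ± 0.13, measured by a probe set that may also match related transcripts. With lens and pigment scores as covariates its hyperoxia difference was 0.46 (adjusted p = 0.134). Gphn, the scaffold gephyrin, passed in hyperoxia by a narrow margin, at 0.34 ± 0.11 (adjusted p = 0.0437). That call was lost in 15 of the 24 fits without 1 array (adjusted p up to 0.199, without hyperoxia day 12 replicate 1). It was also lost with the covariates (0.45 ± 0.15, adjusted p = 0.1), with the deposited scaling (adjusted p = 0.0792) and with only the arrays compared (adjusted p = 0.241).

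Among 9 tested genes of glutamate release, uptake and recycling, 3 rose in room air (33.3%, median 0.19) and 2 in hyperoxia (22.2%, median 0.04). Glul, the glutamine synthetase of Müller glia, read 12.45, 12.39 and 12.32 at day 7 and 13.70, 13.80 and 13.86 at day 12 in room air. It rose by 1.40 ± 0.16 (adjusted p = 1.16e-05), and by 1.36 ± 0.16 (adjusted p = 1.66e-05) in hyperoxia. Summed markers of Müller glia, 1 of which is Glul, went from between 39979 and 42603 to between 59754 and 65562 in room air. That sum includes the rise of Glul itself, and 3 of the 9 markers were called higher, beside 7.14% of all probe sets. The part of Müller glia in the rise of Glul was not tested. Slc38a3, a glutamine transporter, rose by 0.81 ± 0.15 and 0.73 ± 0.15, and with the covariates its hyperoxia call was lost (0.66, adjusted p = 0.0747). Slc17a6, a vesicular glutamate transporter, rose by 0.47 ± 0.14 in room air (adjusted p = 0.0353). Its call was lost with the covariates (0.43, adjusted p = 0.114) and with only the arrays compared (adjusted p = 0.185). The call was also lost without any 1 of room air day 7 replicates 1 and 3 or day 12 replicates 2 and 3 (adjusted p from 0.0701 to 0.195).

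Of 22 tested glutamate receptor partners and scaffolds, 6 rose and 1 fell in room air (31.8%, median 0.28), and 6 rose and 0 fell in hyperoxia (27.3%, median 0.25). Nptx2, a secreted pentraxin that clusters AMPA receptors, rose by 0.80 ± 0.14 (adjusted p = 0.000726) and 0.98 ± 0.14 (adjusted p = 0.000105). Camk2b, a kinase of the postsynaptic density, rose by 0.76 ± 0.14 and 0.74 ± 0.14, Cacng5, an auxiliary AMPA receptor subunit, by 0.69 ± 0.15 and 0.77 ± 0.15, and Nsf, an ATPase that binds Gria2 protein, by 0.56 ± 0.12 and 0.67 ± 0.12. The single fall was that of Homer3, a postsynaptic scaffold, by 0.50 ± 0.14 in room air (adjusted p = 0.0221), named after its values were seen. With the covariates the calls of Camk2b (0.73, adjusted p = 0.052) and Cacng5 (0.63, adjusted p = 0.0968) in hyperoxia and of Homer3 in room air (-0.52, adjusted p = 0.0574) were lost. That of Homer3 was also lost without room air day 7 replicate 3 (adjusted p = 0.127) or day 12 replicate 3 (adjusted p = 0.0841).

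Cacng2, the auxiliary subunit stargazin, is singled out for the same reason. Its room air arrays read 7.89, 7.08 and 7.08 at day 7, 8.01, 8.35 and 8.79 at day 8, 9.23, 8.94 and 8.74 at day 10, and 9.11, 9.02 and 7.81 at day 12. Its hyperoxia arrays read 8.18, 7.63 and 7.08 at day 7, 8.53, 8.18 and 8.31 at day 8, 7.89, 7.08 and 8.15 at day 10, and 7.43, 7.08 and 7.70 at day 12. The conditions did not overlap at days 10 and 12, and several arrays were at the floor. Cacng2 rose by 1.29 ± 0.35 in room air between days 7 and 12 (adjusted p = 0.0171). The size moved with the floor, from 0.76 with it at the 30th percentile to 1.51 with it at the 10th, where the call was lost (adjusted p = 0.0702). The call was also lost without any 1 of room air day 7 replicates 2 and 3 or day 12 replicates 1 and 2 (adjusted p from 0.0632 to 0.0871). The hyperoxia differences were -1.26 ± 0.35 at day 10 (adjusted p = 0.207) and -1.24 ± 0.35 at day 12 (adjusted p = 0.347), and neither passed. Against room air, 0 of the 46 genes were called at any age or for the mean of the 4 days, with 0, 4, 5, 3 and 2 at an unadjusted p under 0.05. The same counts over all 15838 probe sets were 503, 780, 1729, 1383 and 1415.

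**Figure D5:**
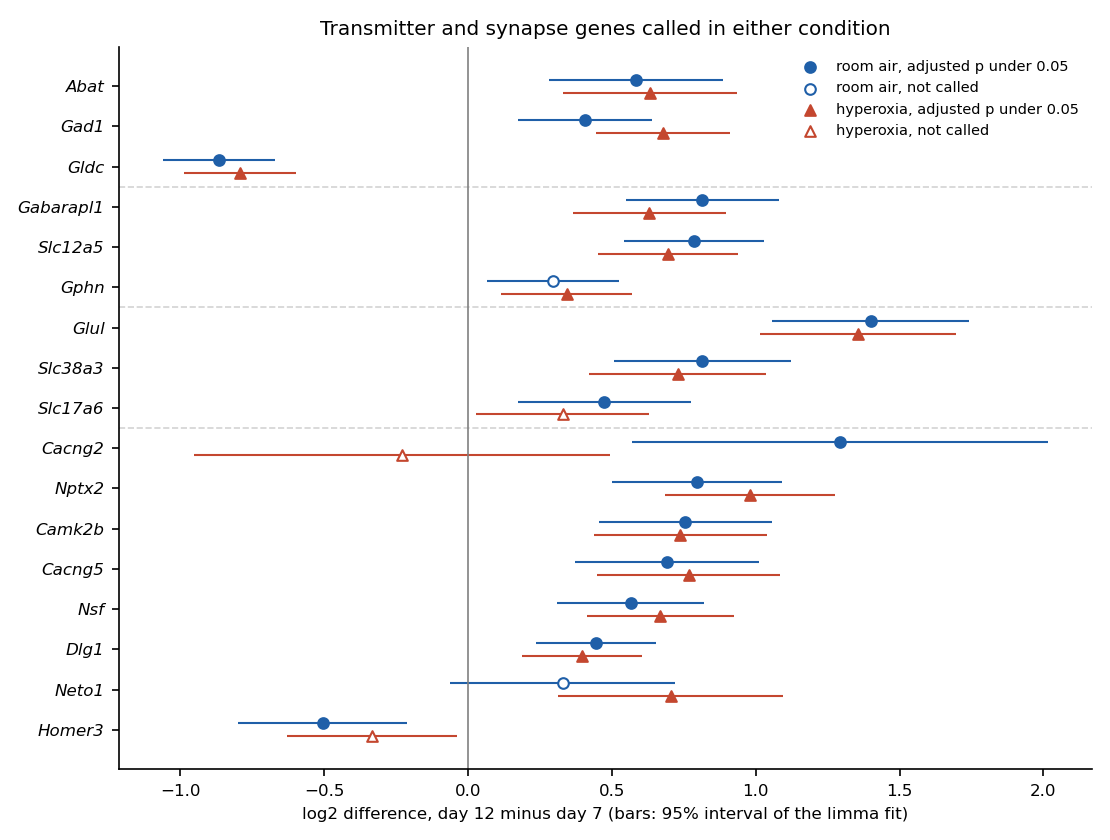
Log2 difference between day 12 and day 7 for the transmitter and synapse genes called in either condition, grouped by list between dashed lines, in room air (blue circles) and hyperoxia (red triangles), with 95% intervals of the limma fit; filled points passed an adjusted p under 0.05. Gldc and Homer3 lie left of 0, and Cacng2 has the widest intervals, at 1.29 in room air and -0.23 in hyperoxia.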

How the data were processed

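The deposited values are linear intensities of 22690 probe sets, 64 of them controls, on each array. Trimmed means of 1500.35 to 1500.4 per array show that the authors had scaled the deposited intensities; the software is not given in the sources used here. Array medians spanned 0.253 on the log2 scale, so arrays were quantile normalized. A floor was set at the 20th percentile of the deposited values (135.6), controls were left out, and probe sets with a mean under the 30th percentile of means were removed, leaving 15838, with 0.34% of values at the floor. Each comparison was a contrast in 1 limma fit (version 3.58.1, R 4.3.3) of 8 group means over 24 arrays, with 16 residual degrees of freedom and Benjamini-Hochberg adjustment over all probe sets. The procedure was tested on simulated data. The number of arrays limits the precision.

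The members, the gene lists and the tests were chosen with earlier results of these data known. Every called member was named, or the 5 with the lowest p where fewer than 5 were called, and up to 4 called genes per list; others were named after their values were seen. Gene symbols came from the platform annotation, neighbours and promoters from RefSeq (GRCm38.p6). Same-numbered room air and hyperoxia arrays correlated in their deviations from group means at -0.31 to 0.445, over 0.1 in 5 of 12 pairs. At day 12 all 3 pairs exceeded 0.1 (0.234 to 0.445), as did all 3 hyperoxia pairs of days 7 and 12 (0.151 to 0.37). The room air pairs of days 7 and 12 stood at -0.241, 0.129 and -0.0867. The numbers may thus pair some of the samples, but the labels do not say what a number marks. The main fit left the number out, and a fit with it as a block is given below.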

Additional observations from a re-analysis of the deposited data

How the results depend on the processing

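Under 11 alternatives and 24 fits without 1 array, the room air calls of Gabrr2, Gabrr1, Gabrd and Gabrb1 held wherever the probe set was tested. The count of called members in room air (8) was 4 with the filter at the 50th percentile, which tested 9 members, and 4 with only the arrays compared. Over all probe sets these settings called 1771 and 923, beside 1955 in the main fit. Without 1 array the member count was 5 to 9. It was lowest without room air day 7 replicate 3 or day 12 replicate 1, where 1192 and 1585 of all probe sets were called. The count in hyperoxia (3) was 1 with lens and pigment covariates, 1 with only the arrays compared, and 2 to 4 without 1 array. The first 2 of these settings called 565 and 597 of all probe sets, beside 1993 in the main fit. Between days 8 and 10 the count of 1 became 3 with 1 probe set per gene, 3 with the filter at the 50th percentile, 3 with only the arrays compared, 2 with a robust, intensity-dependent prior, 2 without the 2 arrays farthest from their group means, and 1 to 2 without 1 array. In that order, fits without 1 array aside, 415, 454, 388, 511 and 418 of all probe sets were called, beside 458 in the main fit. Between days 10 and 12 the member count was 0 with the filter at the 50th percentile, where Gabrr2 was not tested, and 1 without any 1 array. All counts in the hyperoxia comparisons and between days 7 and 8 stayed at 0.

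With the replicate number as a block the counts were 9 in room air, 4 in hyperoxia, 4 between days 8 and 10 (Gabrr2, Gabrr1 with an adjusted p of 0.0331, and both sets of Gria1 with 0.0307 and 0.0452), 1 between days 10 and 12, and 0 elsewhere. Over all probe sets the block fit called 2286, 2358, 568 and 381 in these 4 comparisons, beside 1955, 1993, 458 and 230 in the main fit. The hyperoxia difference of Grin2d at day 8 (-0.32) ranged from -0.60 to 0.017 without 1 array, the sign turning without hyperoxia day 8 replicate 3, and it was not called in any of these fits. With only the arrays compared, the calls of Abat, Gabarapl1, Slc12a5 and Slc38a3 in hyperoxia and of Gad1, Nsf, Homer3 and Cacng2 in room air were lost (adjusted p from 0.0502 to 0.0997). That setting left the differences as in the main fit and took the spread from the arrays compared alone. Its calls over all probe sets were 923 in room air and 597 in hyperoxia, beside 1955 and 1993 in the main fit. Among the receptors, that setting lost the room air calls of Gabra2 (adjusted p = 0.149), Gria3 (0.132), Glrb (0.0706) and Gria1 (0.0638). In hyperoxia it lost those of Gabrd (adjusted p = 0.108) and Gabrr1 (0.097). Signal near the floor limits the 17 untested probe sets, and both their differences and their spread may be understated where arrays lie at the floor.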
